A study of Rattus norvegicus with 23 samples.

Results

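The state of rat dorsal root ganglia (DRG) 12 h after sciatic nerve transection was measured on 3 of the 23 arrays of a time course, the 3 whose titles give 12 h. A peripheral cut of this kind is called a conditioning lesion because sensory axons regrow better after a later injury. Each array compared lumbar DRG (L4 and L5) of Long-Evans rats whose sciatic nerve had been transected at postnatal days 20 to 24, labelled with Cy5, with intact DRG, labelled with Cy3. The other 20 arrays followed the same comparison at 4, 8, 18, 24, 48, 148 and 296 h. Of these, 12 arrays covered the rest of the first day and 8 the later times. The labels name no other treatment, and they do not say whether the 3 arrays came from separate animals or pools, so p-values reflect the spread of these arrays, which may be technical. They also call the material cultured cells while their treatment text describes ganglia taken after surgery, and only the lesion and time labels were used. The ratio was read from the dyes as lesioned over intact. Every array had the dyes the same way round, so a dye bias of a probe and an effect of the lesion cannot be told apart at 12 h alone. For this reason each probe was also compared with its own ratio at the other times.

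A sensory neuron of the DRG sends one branch to the periphery and one into the spinal cord. A cut of the peripheral branch starts a program of injury and growth genes in the cell body, led in the first hours by stress-induced transcription factors such as Atf3 and followed over days by growth cone proteins and neuropeptides. Around each neuron lie satellite glia, and its axon is wrapped by Schwann cells, so RNA of a whole ganglion mixes several cell types. Fewer cells of a type and less RNA per cell cannot be told apart in such samples, and a ratio carries no absolute level, so the tissue could not be checked by the level of its markers.

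The 12 h arrays held values for 4945 to 5010 of the 5088 probes, and their median ratios were 1.005 to 1.009. Replicate 1 stood apart. The SD of its log2 ratios was 0.712, against 0.539 and 0.52 on replicates 2 and 3. Its Spearman correlation with them across probes was 0.235 and 0.225, against 0.356 between replicates 2 and 3 (4891 to 4960 probes, which are not independent replicates). All 23 arrays entered 1 fit per probe in limma, in which arrays of noisier times counted less. Of 5020 probes tested, 104 passed an adjusted p of 0.05 at 12 h, 2.07% in all, with 46 higher in lesioned ganglia (0.916%) and 58 lower (1.16%). At an unadjusted p under 0.05 there were 766 (15.3%). All 104 had the same sign on every array that measured them, which calling them on these same arrays makes likely. The count depended on how much weight each array was given. It was 7 (0.139%) with equal weights on all 23 arrays, 181 (3.61%) with a weight for each array, 50 with the first-day arrays alone and 0 with the 12 h arrays alone. Without replicate 1 it was 150, without replicate 2 it was 6, and without replicate 3 it was 5. Probes that stayed called with equal weights, and without replicate 2 and without replicate 3, were those of Ccnd1 (53G02), Vegfa (52C12), Rps6kb1 (52F12) and Fgfr1-ps1 (36G05), described below. Calls on other genes therefore rest on the weights given to the 8 times, on replicate 2 or on replicate 3, and the values of the single arrays are given for the genes described.

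Atf3, a stress-induced transcription factor of the ATF/CREB family and the usual marker of axotomised sensory neurons, was higher in lesioned ganglia at 12 h on its 1 probe. Its log2 ratios were 1.61, 1.13 and 1.90 on replicates 1 to 3. The mean was 1.55 ± 0.39 (SD, n = 3), 2.92-fold (adjusted p = 0.00235, and 0.0114 with equal weights). All 3 arrays lay above 0, and above the 3 values at 4 h, the highest of which was 0.71. The level at 12 h was a middle point of its course, with means of 0.52 at 4 h, 1.38 at 8 h, 2.61 at 18 h and 2.28 at 24 h. Its single measured arrays at 48 and 296 h gave 3.70 and 1.97. Against the mean of the other first-day times the difference was -0.15 ± 0.23 (SE, adjusted p = 0.975). Without replicate 3 the 12 h value was 1.37 and no longer passed (adjusted p = 0.159).

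Gadd45a, which encodes a stress sensor that acts in growth arrest and DNA repair, was the other injury marker. Its log2 ratios were 0.50, 1.83 and 1.18. The mean was 1.17 ± 0.67 (SD, n = 3), 2.25-fold (adjusted p = 0.0136). The 3 arrays differed more from each other than those of Atf3, with replicate 1 the lowest. At 4 and 8 h its means were -0.09 and 0.26, and at 18 and 24 h they were 1.88 and 2.25, so 12 h was the earliest time at which its mean exceeded 1. The means then were 1.27, 0.98 and 0.74 at 48, 148 and 296 h. The adjusted p was 0.271 with equal weights, 0.293 without replicate 2 and 0.193 without replicate 3.

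Atf3 was the only one of 21 probes for injury and stress transcription factors that passed the test at 12 h, and the median of that list was 0.02, against 0.02 over all probes tested. Cebpb, a factor of inflammatory signalling, had 0.53, 0.84 and 0.16, with a mean of 0.51 that missed the threshold (adjusted p = 0.234). The 2 probes of Atf4, the factor of the integrated stress response, disagreed, with means of 0.38 and -0.38, and neither passed. Sox11 had a mean of 0.07, Egr1 0.11 and Stat3 -0.39, none of them past the threshold. Of 12 probes for growth arrest, DNA damage and heat shock genes, Gadd45a alone passed. Its relative Gadd45g had a mean of 0.11. The small heat shock protein Hspb1 gave 0.11 on probe 52D12 and -0.11 on probe 9H02.

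**Figure D1:**
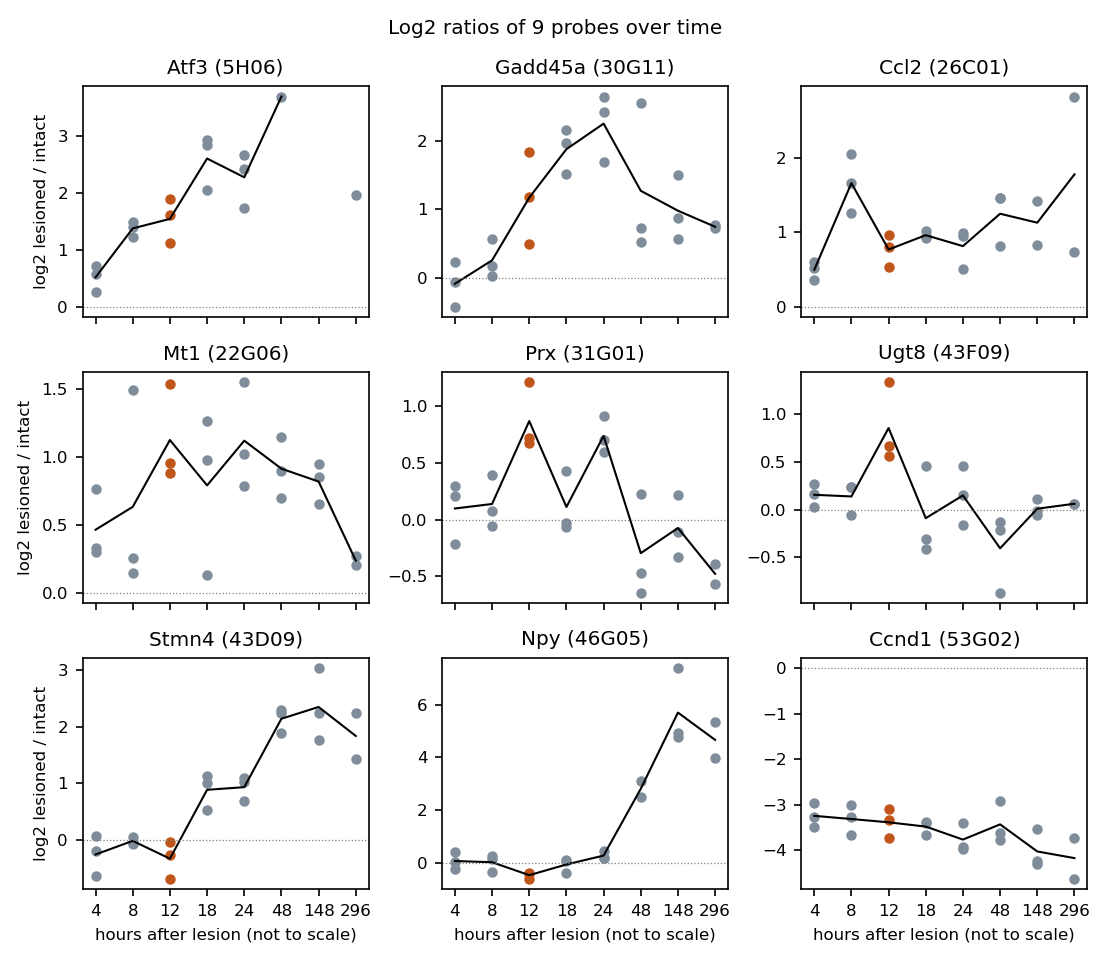
Log2 ratio of lesioned over intact ganglia (vertical axis) for 9 probes at 4 to 296 h (horizontal axis, times evenly spaced and not to scale). Points are single arrays, with the 12 h arrays in orange, and lines join the means of neighbouring times, broken where a time has no value. At 12 h Atf3 (mean 1.55) and Gadd45a (1.17) lie partway up, Prx (0.87) and Ugt8 (0.86) are high, Stmn4 and Npy have not left the region of 0, and Ccnd1 lies near its value at every other time.

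The promoter of Gadd45a is shown because the gene is 1 of the 2 injury markers. It lies at chr4:97486800-97487049 of the rat GRCr8 assembly on the minus strand, and the 250 bases before the start of the gene, from RefSeq, are printed 5′ to 3′. No capitals appear because none of the 3 motifs named next has a match here.

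Gadd45a: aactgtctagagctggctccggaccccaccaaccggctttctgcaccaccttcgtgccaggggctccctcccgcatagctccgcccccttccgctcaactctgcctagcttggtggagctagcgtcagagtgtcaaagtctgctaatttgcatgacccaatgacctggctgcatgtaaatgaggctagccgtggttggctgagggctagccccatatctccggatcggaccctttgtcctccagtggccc

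These motifs were the cAMP response element TGACGTCA, the AP-1 site TGAGTCA and the STAT site TTCNNNGAA, each searched on both strands of these 250 bases. Of 38 genes called higher at 12 h, 27 had a promoter in the reference table, and of 50 called lower, 39 did. The cAMP response element was found in 0 of 27 and 1 of 39 promoters, against 1.7% of all 27457 promoters and 2.04% of the 3341 of genes on the array. The AP-1 site was found in 2 of 27 (7.41%) and 1 of 39 (2.56%), against 3.98% of all and 3.89% of those on the array. The STAT site was found in 1 of 27 (3.7%) and 2 of 39 (5.13%), against 7.52% of all and 6.32% of those on the array. A match describes letters only and is not evidence of a bound site.

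Metallothioneins are small proteins rich in cysteine that bind zinc and copper, and 2 of their genes were called at 12 h, in opposite directions. Mt1 had 1.54, 0.88 and 0.95 on probe 22G06, with a mean of 1.13 ± 0.36 (SD, n = 3), 2.18-fold (adjusted p = 0.0136). The same gene gave 0.17, 0.23 and -0.03 on probe 52F03 and 0.14, 0.02 and -0.27 on probe 52G03, neither past the threshold. The 3 probes therefore disagreed, for a reason that was not tested, and the value of Mt1 is uncertain. On probe 22G06 the means at 4, 8, 18 and 24 h were 0.47, 0.63, 0.79 and 1.12, so the 12 h value did not stand apart (difference 0.37 ± 0.25 SE, adjusted p = 0.954). With the first-day arrays alone its adjusted p was 0.0579. Mt3, the form known from neurons and astrocytes, had -1.15, -0.31 and -0.32, with a mean of -0.59 ± 0.48 (SD, n = 3, adjusted p = 0.0386). Without replicate 1 it was -0.31 and did not pass (adjusted p = 0.115). Gstm1, a glutathione transferase, was lower too, with -0.48, -0.69 and -0.86 (mean -0.68 ± 0.19, SD, n = 3, adjusted p = 0.0219). Of the 20 tested probes for metallothionein and antioxidant genes, 1 was called higher and 2 lower, against 0.916% and 1.16% of all probes, and their median was -0.01.

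The promoters of Mt1 and Mt3 are shown because the family is controlled through the metal response element, whose core was searched as TGCACNC and TGCGCNC on both strands, a choice made after the value of Mt1 was seen. Mt1 lies at chr19:10832976-10833225 and Mt3 at chr19:10856081-10856330 of GRCr8, both on the minus strand, and capitals mark the matches.

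Mt1: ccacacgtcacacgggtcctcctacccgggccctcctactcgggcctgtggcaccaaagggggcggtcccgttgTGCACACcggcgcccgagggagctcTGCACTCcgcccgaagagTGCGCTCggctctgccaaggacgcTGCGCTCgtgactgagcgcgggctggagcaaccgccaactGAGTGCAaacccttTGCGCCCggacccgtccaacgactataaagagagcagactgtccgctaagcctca

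Mt3: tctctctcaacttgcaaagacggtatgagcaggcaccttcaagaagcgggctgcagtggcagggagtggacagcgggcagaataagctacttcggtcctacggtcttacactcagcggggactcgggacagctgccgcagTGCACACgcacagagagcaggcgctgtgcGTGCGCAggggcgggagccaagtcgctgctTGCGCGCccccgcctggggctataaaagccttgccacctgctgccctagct

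The Mt1 promoter held 6 matches in 250 bases, and Mt3 held 3. At least 1 match was found in 7 of the 27 promoters of genes called higher (25.9%) and 15 of the 39 of genes called lower (38.5%), against 28.3% of 3341 promoters of genes on the array. Of all 27457 promoters, 21.2% held at least 1 match, 342 (1.25%) held 3 or more, and 6 (0.0219%), Mt1 among them, held 6 or more. The Gadd45a promoter held 0.

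Ccl2, the chemokine that draws monocytes, was the inflammatory gene of which both probes were called. Probe 52C04 gave 0.96, 1.09 and 0.85, with a mean of 0.97 ± 0.12 (SD, n = 3), 1.95-fold (adjusted p = 0.00302). Probe 26C01 gave 0.80, 0.97 and 0.54, with a mean of 0.77 ± 0.22 (SD, n = 3), 1.71-fold (adjusted p = 0.027). Both were above 0 on every 12 h array, and the mean of probe 26C01 was highest at 8 h among the first-day times (1.66) and of probe 52C04 at 8 and 12 h (0.99 and 0.97). With equal weights their adjusted p-values were 0.0818 and 0.464. Il1b, the cytokine interleukin-1 beta, had -1.13, -0.30 and -0.73 on probe 52A11 (adjusted p = 0.0423), but -0.29, 0.69 and 0.12 on probe 25H04. Csf1, a growth factor of macrophages, had -1.10, -0.21 and -0.76 (adjusted p = 0.0386). Without replicate 1 neither Il1b (adjusted p = 0.0982) nor Csf1 (0.0961) passed. The mean of the other first-day times was -0.74 for Csf1, against -0.69 at 12 h. For Il1b on probe 52A11 it was -0.40, against -0.72 at 12 h. Neither difference passed (adjusted p = 0.985 and 0.951). Of 28 probes for chemokines and inflammatory cytokines, 2 were called higher and 2 lower, against 0.916% and 1.16% of all probes, and the median was 0.08. None of 11 probes for macrophages and leukocytes passed, with a median of -0.07. Among them Cd53 had 1.12, 3.18 and 0.55 and Csf1r 3.11, 0.45 and 0.02, where single arrays set the mean. None of 13 probes for gp130 cytokines, their receptors and signalling passed either. Il6 had -0.01, -0.23 and 0.06.

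Several genes of myelin, and 2 of cholesterol synthesis, were called higher at 12 h, but none differed past the threshold from the other first-day times. Of 13 probes for myelinating Schwann cells, 3 were called higher and 0 lower, with a median of 0.43, against 0.916% of all probes called higher and a median of 0.02. Periaxin (Prx), a protein of the Schwann cell membrane that stabilises the myelin sheath, had 1.21, 0.72 and 0.68, with a mean of 0.87 ± 0.30 (SD, n = 3), 1.83-fold (adjusted p = 0.00377). Plasmolipin (Pllp), a myelin membrane protein, had 0.46, 0.67 and 0.92 (mean 0.68 ± 0.23, SD, n = 3, adjusted p = 0.022). Pmp22, a structural protein of peripheral myelin, had 0.42, 0.64 and 0.80 (mean 0.62 ± 0.19, SD, n = 3, adjusted p = 0.0219). Every array lay above 0 for these 3 genes. Against the other first-day times the differences were 0.60 for Prx, 0.20 for Pllp and 0.32 for Pmp22 (adjusted p = 0.791, 0.961 and 0.873). The list had a median difference of 0.09 from those times. Mbp, the main cytoplasmic protein of compact myelin, had -0.43, 0.37 and 0.31, and the 2 probes of Mag gave means of -0.18 and 0.16. The 2 probes of S100b disagreed, with means of 0.43 and -0.42. Ugt8, which makes the galactolipids of myelin and was not on that list, had 1.33, 0.56 and 0.67 (mean 0.86 ± 0.42, SD, n = 3, adjusted p = 0.0129).

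Of 13 probes for cholesterol synthesis, 2 were called higher and 0 lower, with a median of 0.28, against 0.916% of all probes called higher and a median of 0.02. Msmo1, a sterol demethylase, had 0.88, 0.80 and 0.92 (mean 0.87 ± 0.06, SD, n = 3, adjusted p = 0.0107). Fdps, which makes farnesyl diphosphate, had 0.39, 0.46 and 0.75 (mean 0.53 ± 0.19, SD, n = 3, adjusted p = 0.022). The differences of Msmo1 and Fdps from the other first-day times were 0.31 and 0.10 (adjusted p = 0.934 and 0.975). The list had a median difference of 0.08 from those times. Sqle and Idi1, enzymes of the same pathway, had means of 0.53 and 0.55 that missed the threshold (adjusted p = 0.091 and 0.0542). The list ran from -1.61 to 0.87. Its lowest member was Insig1, a brake on sterol synthesis, with -2.22 and -1.0 on the 2 arrays that measured it (adjusted p = 0.143). Of 17 fibroblast and matrix probes, 1 was called higher and the median was 0.30. This was Dcn, the collagen-binding proteoglycan decorin, with 1.09, 0.43 and 0.49 (adjusted p = 0.0415, and 0.0958 without replicate 1). Of 13 probes for satellite glia and non-myelinating Schwann cells, 1 was called, the intermediate filament Vim with 0.56, 0.57 and 0.37 (adjusted p = 0.0347), and the list had a median of 0.04. With equal weights no probe of these 4 lists passed. None of 9 probes for skeletal muscle or 5 for red blood cells was called.

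Of 16 probes for neuronal structure, 1 was called, and lower, against 1.16% of all probes called lower. This was Uchl1, a ubiquitin hydrolase abundant in neurons, with -0.72, -0.68 and -1.19 (mean -0.86 ± 0.29, SD, n = 3, adjusted p = 0.0254). The neurofilament genes had means of 0.57 for Nefh, 0.25 for Nefm, and 0.05 and -0.21 on the 2 probes of Nefl, and Prph, the peripheral intermediate filament, had 0.10, none past the threshold. The list had a median of -0.13. None of 19 neuropeptide probes and none of 18 nociceptor probes passed, and their medians were 0.09 and -0.01. Calca, the precursor of the peptide CGRP, had means of -0.48 and -0.08 on its 2 probes, and Gal, the precursor of galanin, had -0.65, -0.29 and 0.08.

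Of 31 probes for regeneration-associated genes, 1 was called higher (Mt1, probe 22G06) and 1 lower, and the median was -0.01. The lower one was Sprr1a, a small proline-rich protein of regrowing axons, with -1.08, -0.98 and -0.89 (mean -0.99 ± 0.10, SD, n = 3, adjusted p = 0.0125). The 3 arrays were close to each other, and the mean of the other first-day times was also near -1 (-0.975). Gap43, the growth cone protein used most often as a marker of axon growth, had -0.24, 0.15 and 0.07. Arg1, arginase-1, had 0.40, 0.20 and 0.23, and Slpi, a protease inhibitor, had 0.84, -0.47 and -0.07. Neither passed the threshold.

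**Figure D2:**
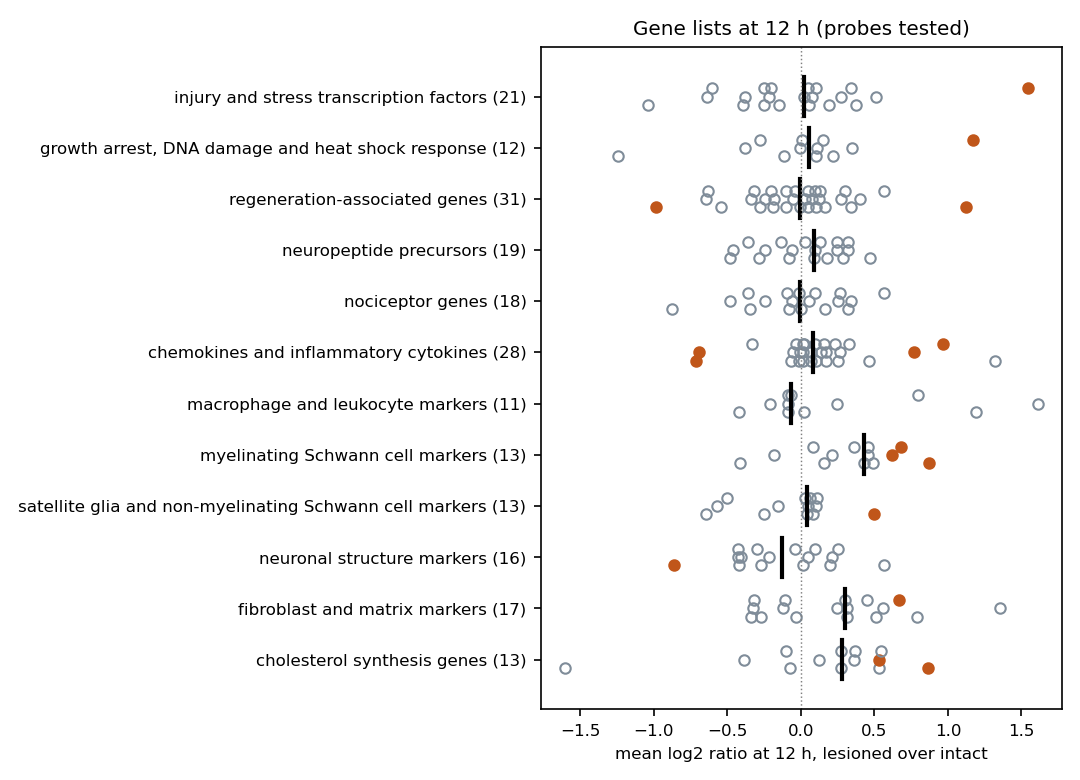
Mean log2 ratio at 12 h (horizontal axis) of every tested probe in 12 gene lists (rows, number of probes in brackets). Filled orange points passed the test, open grey points did not, and black bars are list medians. The median of the myelinating Schwann cell list was 0.43, and those of the injury transcription factors and the regeneration-associated genes were 0.02 and -0.01.

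In the other lists the counts of calls are to be read against the 2.07% of all probes called. Of 67 probes for cAMP and G protein signalling 1 was called, the G protein subunit Gng7, which was lower (-1.11, -0.72 and -0.41). Of 66 for neurotransmitter receptor channels 1 was called, the kainate receptor subunit Grik1, also lower (-0.72, -0.55 and -1.0). None of 96 probes for voltage-gated ion channels, 19 for neurotrophins, GDNF family ligands and their receptors, 29 for apoptosis regulators, 29 for the proteasome or 10 for the clock was called. Of 66 probes for ribosomal proteins, Rpl14 was called higher (0.80, 0.34 and 0.59) and Rps2 lower (-0.43, -0.36 and -0.49), with a list median of 0.11. Of 29 for oxidative phosphorylation, Atp5pb, a subunit of the ATP synthase, was called higher (0.82, 0.34 and 0.35). Of 71 probes for 19 glycolysis genes, 1 for the enolase Eno1 was called lower (-1.0, -0.50 and -1.62). With equal weights none of Gng7, Grik1, Rpl14, Rps2, Atp5pb and Eno1 passed. Gng7 (adjusted p = 0.0804 to 0.293) and Atp5pb (0.0931 to 0.224) failed whichever of the 3 arrays was left out. The mean of Atp5pb at the other first-day times was 0.36, against 0.50 at 12 h.

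Most of the largest ratios at 12 h belonged to probes whose ratio was large at other times too, and for 6 genes a second probe did not share it. Ccnd1, cyclin D1, had -3.08, -3.73 and -3.34 on probe 53G02, with a mean of -3.38 ± 0.33 (SD, n = 3), 10.4-fold lower (adjusted p = 1.73e-10). Its probe 30F03 gave -0.78, -0.15 and 0.35. On probe 53G02 the means of the other 7 times ran from -4.17 at 296 h to -3.24 at 4 h. Vegfa, a growth factor of blood vessels, had -1.76, -3.35 and -4.63 on probe 52C12 (adjusted p = 8.26e-06), and -0.90, 0.09 and 0.08 on probe 25C10. Vegfd, of the same family, had 1.19, 4.40 and 4.68 on probe 52H11 (adjusted p = 0.00357), and 0.39, -0.27 and 0.07 on probe 29H11. Rps6kb1, the S6 kinase, had 2.71, 1.80 and 3.08 on probe 52F12 (adjusted p = 3.93e-07), and -0.49, 0.61 and 0.41 on probe 34G05. Il3, a growth factor of blood cells, had 1.61, 0.72 and 0.78 on probe 52B11 (adjusted p = 0.0196), and a mean of 0.06 on probe 26B07. Col2a1, a chain of type II collagen, had 1.34, 0.97 and 0.88 on probe 32C10 (adjusted p = 0.0274), and a mean of 0.05 on probe 48G01. These 6 genes had 2 probes each, and in none of them was the second probe called.

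The probe of Fgfr1-ps1, a pseudogene of a fibroblast growth factor receptor, had -1.75, -2.30 and -2.17 (adjusted p = 0.000136). Its sequence was not analysed here, and signal of the parent gene could not be told apart from its own. C5, a complement component, had -2.27, -1.76 and -1.50, with means from -2.96 to -1.64 at the other times. Rnf103, a ubiquitin ligase, had -0.69, -4.14 and -1.44, so that replicate 2 set its mean of -2.09 ± 1.81 (SD, n = 3). Probe 53G08, without a gene symbol, had 2.46 and 4.15 on the 2 arrays that measured it, and 0.13 as the mean of the other first-day times. Probe 51F01, also unnamed, had 0.96 and 3.46 on 2 arrays. Probe 53H05, unnamed too, had 1.90, 3.72 and 1.37 (adjusted p = 0.0125), and 3.02 as the mean of the other first-day times. The unnamed probe 53C01 had -0.65, -1.76 and -1.38 (adjusted p = 0.0104), against -1.42 at those times.

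Crtac1, a matrix protein of cartilage that is also made in neural tissue, had 1.20, 1.46 and 0.73 (mean 1.13 ± 0.37, SD, n = 3, adjusted p = 0.000455, and 0.0114 with equal weights). Its means were 1.01 to 1.26 at the other first-day times, 1.87 at 48 h, 2.07 at 148 h and 1.38 at 296 h. Dlgap2, a scaffold protein of synapses, had -1.55, -1.48 and -1.24 (adjusted p = 0.00188). Hivep2, a zinc finger transcription factor, had -1.21, -1.21 and -0.91 (adjusted p = 0.00195). With equal weights neither passed (adjusted p = 0.0701 for each). Itgb4, an integrin of epithelia and Schwann cells, had 0.47, 1.58 and 1.04 (adjusted p = 0.00892). The means of the other first-day times were -1.85 for Dlgap2, -1.10 for Hivep2 and 0.95 for Itgb4. Nsf, the ATPase that recycles the vesicle fusion machinery, had -0.98, -0.87 and -1.44 (adjusted p = 0.0274). Gipc1, a scaffold protein, had -1.74, -0.77 and -0.92 (adjusted p = 0.022). Rnf39, a ring finger protein, had -0.31, -1.16 and -1.86 (adjusted p = 0.0385), so that its arrays were far apart. The means of the other first-day times were -0.63 for Nsf, -0.78 for Gipc1 and -1.10 for Rnf39.

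**Figure D3:**
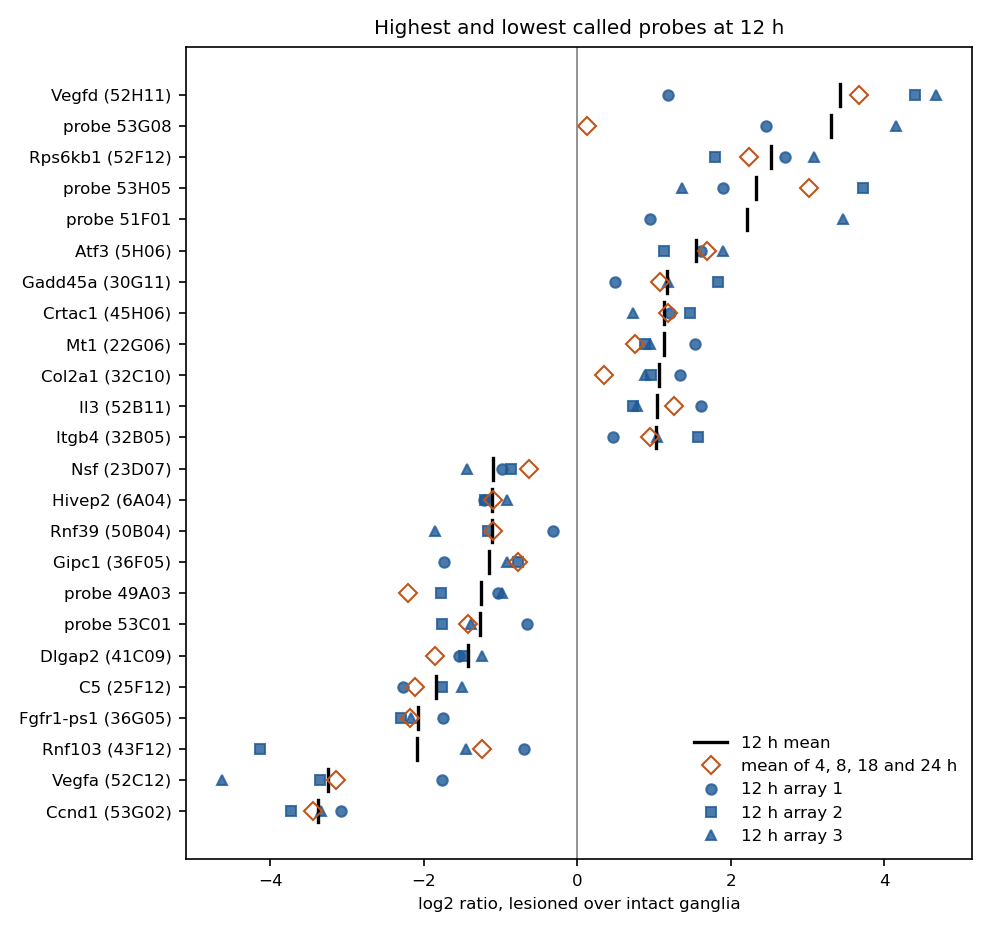
Log2 ratio of lesioned over intact ganglia (horizontal axis) at 12 h for the 12 highest and the 12 lowest called probes (rows). Filled symbols are the 3 arrays, black bars their mean, and open diamonds the mean of 4, 8, 18 and 24 h where each of these times had a value. For Ccnd1 the diamond (-3.45) lies on the 12 h mean (-3.38), while for probe 53G08 (3.31 against 0.13) and Col2a1 (1.06 against 0.35) it lies nearer to 0.

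Calls were more frequent on 3 plates of the probe collection. On plates 36, 52 and 53, 19 of 247 tested probes were called (7.69%), against 85 of 4773 on all other plates (1.78%). Among these 19 were the called probes of Ccnd1, Vegfa, Vegfd, Rps6kb1, Il3, Fgfr1-ps1, Gipc1, Sprr1a, Csf1 and Il1b. So were 1 of the 2 called probes of Ccl2 and the unnamed probes 53G08, 53H05 and 53C01. The probe of Map2k5 (36H11), which differed from the other times, was also on plate 36. Whether the plate has a part in these values was not tested. The 3 plates were set by hand and not by a rule, and plates were not compared singly. If earlier results of these data guided that choice, the higher share follows in part from it. The probes of Atf3, Gadd45a, Crtac1, Prx, Pllp, Pmp22, Msmo1 and the called one of Mt1 were on other plates.

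Whether a response was particular to 12 h was asked first within the first day, where all arrays were nearly complete. Of 4946 probes tested, 0 differed at 12 h from the mean of 4, 8, 18 and 24 h by limma (0%), with 279 at an unadjusted p under 0.05 (5.64%) and a smallest adjusted p of 0.791. The methods' t-test also gave 0 calls after adjustment, with 223 unadjusted. The mean joins 2 earlier and 2 later times, so a gene in mid-rise or mid-fall at 12 h can lie near it. Gadd45a rose from -0.09 at 4 h through 1.17 at 12 h to 2.25 at 24 h, and its difference was 0.10 (adjusted p = 0.978). A probe not called here therefore need not have had a constant ratio over the first day. The 46 probes called higher at 12 h had a median of 0.75, and their medians at 4, 8, 18 and 24 h were 0.39, 0.33, 0.39 and 0.57. The 58 called lower had a median of -0.87, and -0.70, -0.59, -0.69 and -0.87 at those times. The probes were called on their 12 h values, which makes those medians the more extreme by choice.

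The 5 smallest p-values of that comparison, none past the threshold, were those of Tgfbr1, Ugt8, Stmn4, Tas2r123 and 1 probe of Col1a1. Tgfbr1, a receptor of TGF-beta, had 0.82, 0.67 and 0.91 at 12 h, and means of -0.41, -0.41, 0.10 and -0.43 at 4, 8, 18 and 24 h. The difference was 1.09 ± 0.24 (SE, unadjusted p = 0.00029). Ugt8 had means of 0.16, 0.14, -0.09 and 0.15 at those times, against 0.86 at 12 h (difference 0.77 ± 0.19 SE). Its 12 h arrays lay above all other first-day arrays. Col1a1, a chain of type I collagen, had 0.88, 0.30 and 0.18 on probe 32D04 (difference 0.68 ± 0.18 SE), and its other probe had a difference of 0.40 ± 0.18 (SE). Without replicate 1 a single probe passed, Clps, pancreatic colipase, with a difference of 1.78 (adjusted p = 0.0261). On replicate 1 its ratio was -1.11, and on replicates 2 and 3 it was 1.68 and 0.86.

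**Figure D4:**
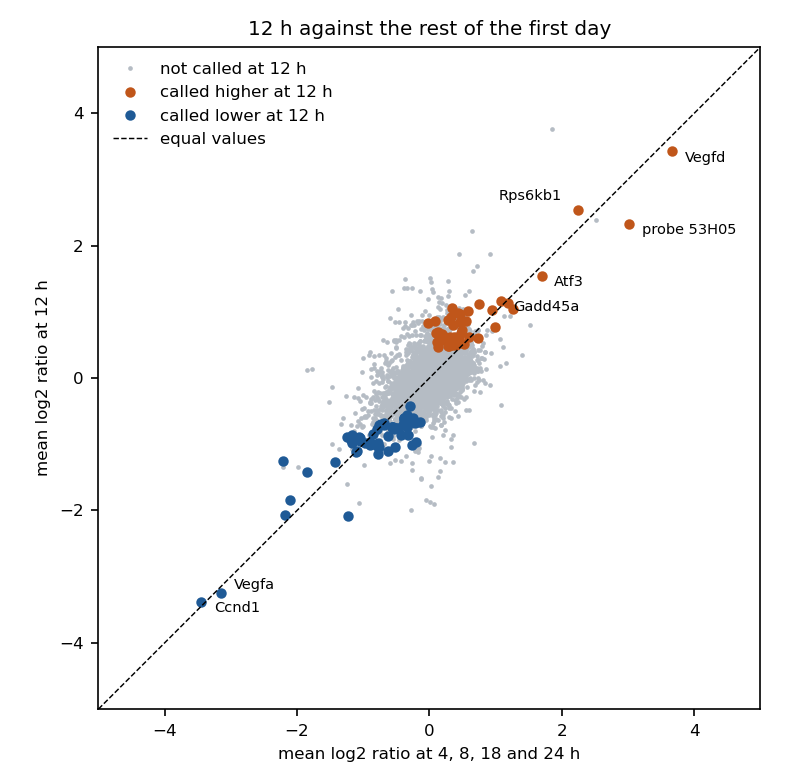
Mean log2 ratio at 12 h (vertical axis) against the mean of 4, 8, 18 and 24 h (horizontal axis) for the 4946 probes tested in both. Orange and blue points were called higher and lower at 12 h, grey points were not called, and the dashed line marks equal values. Most called probes with large ratios lie near the line, Ccnd1 at -3.38 against -3.45, and no point differed past the threshold.

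Against the mean of all 7 other times, 12 of 2327 probes differed at 12 h (0.516%), 3 higher (0.129%) and 9 lower (0.387%). With equal weights 2 did (0.0859%), Npy and Stmn4. The 9 lower genes lay near 0 at 12 h and were higher later. Npy, the precursor of neuropeptide Y, had -0.59, -0.36 and -0.43 at 12 h, against means of 2.81, 5.70 and 4.66 at 48, 148 and 296 h, and the difference was -2.39 ± 0.24 (SE, adjusted p = 3.65e-05). At 4, 8, 18 and 24 h its means were 0.07, 0.03, -0.06 and 0.28. Stmn4, a microtubule regulator of the stathmin family, had -0.69, -0.27 and -0.05 at 12 h, with a difference of -1.46 ± 0.19 (SE, adjusted p = 0.000354). It had means of -0.26 and -0.02 at 4 and 8 h and of 0.88 and 0.93 at 18 and 24 h, and all 3 arrays at 18 h lay above all 3 at 12 h.

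Gap43 had a difference of -0.72 ± 0.16 (SE, adjusted p = 0.0439), with means of 1.19 to 1.41 from 48 h on. Vgf, a secreted peptide precursor, had 0.11, 0.24 and 1.06 at 12 h on probe 1D09 and means of 1.51 and 1.85 at 18 and 24 h (difference -1.10 ± 0.21 SE, adjusted p = 0.0236). On its probe 52D09 the difference was 0.06 ± 0.28 (SE). Timp1, an inhibitor of matrix proteases, had -0.60, -0.24 and -0.18 at 12 h and means of 2.01 and 2.37 at 48 and 148 h (difference -0.99 ± 0.17 SE, adjusted p = 0.0168). Tspo, a protein of the outer mitochondrial membrane, Ptbp2, a neuronal splicing regulator, and Naa35, a subunit of an acetyltransferase, had differences of -1.10, -0.99 and -1.32. Their highest means were 2.08 at 48 h, 3.46 at 148 h and 3.48 at 148 h. Hspb1 had a difference of -0.71 on probe 9H02 (adjusted p = 0.0185), with means of 0.59 at 18 h and 1.70 at 48 h, and of -0.58 on probe 52D12, which did not pass. These 9 genes had 12 h means between -0.46 and 0.47.

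Prx was the gene called both at 12 h and against the other times in the same direction. Its means were 0.10, 0.14 and 0.11 at 4, 8 and 18 h, 0.74 at 24 h, and -0.30, -0.07 and -0.48 from 48 h on, and the difference was 0.84 ± 0.17 (SE, adjusted p = 0.0303). It was near its 12 h value at 24 h, so 2 times shared the higher ratio. With equal weights the adjusted p was 0.189, and without replicate 1 it was 0.0595. Map2k5, a kinase that activates ERK5, had -0.80, 1.28 and -0.87 at 12 h on probe 36H11 against a mean of -2.02 at the other times (difference 1.89 ± 0.38 SE, adjusted p = 0.0352). Its 12 h arrays did not have the same sign, and without replicate 2 the adjusted p was 0.167. Probe 49A03, without a gene symbol, was lower at 12 h (-1.26) but less so than at the other times (-2.58), with a difference of 1.32 (adjusted p = 0.0463). Of the 104 probes called at 12 h, 90 could be compared with all other times, and 2 of them, Prx and probe 49A03, differed there.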

How the data were processed

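The authors deposited 1 linear ratio per probe and array for spotted oligonucleotides, and no intensities were used here. Scanner settings, background correction and within-array normalization are not given in the sources used here. Their effect on the ratios could therefore not be checked. Precision is limited by the number of arrays. Ratios were converted to log2 with no offset. Of the 5088 probes, 4423 carried 1 gene symbol in the platform annotation, 2 several and 663 none.

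A limma model (version 3.58.1, R 4.3.3) over all 23 arrays had 1 mean per time, a weight per time (arrayWeights, because the late arrays were noisier), a moderated variance, two-sided tests and Benjamini-Hochberg adjustment at 0.05 over all probes tested. It was tested on simulated data. Comparisons needed 2 arrays at each time involved. An SE uses the variance over all times, an SD the 12 h arrays alone. Differences are 12 h minus the mean of the other times.

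The members and the 28 gene lists were chosen with earlier results of these data known. Named by rule were the 12 highest and 12 lowest called probes at 12 h, up to 8 at each end of a difference, up to 4 called members per list, the other probes of those genes, the 5 smallest p-values where under 5 passed, and Atf3 and Gadd45a. Other genes were named after their values were seen. Alternatives were other weights, subsets, scalings, filters, gene means, plates, a replicate block and an unmoderated t-test with equal weights. At 12 h that test used the 12 h arrays alone, and for differences it was a contrast of time means. The second array of the last group is labelled 296 h in its title and 294 h elsewhere. Promoters are from RefSeq (GRCr8).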

Additional observations from a re-analysis of the deposited data

Results flagged for a closer look

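The difference between the 12 h ratio and the mean of the 7 other times passed the test for 12 probes, which are given here by that difference on the log2 scale, with the adjusted p from limma. It was 1.89 for Map2k5 (0.0352), 1.32 for probe 49A03 (0.0463) and 0.836 for Prx (0.0303). It was -0.707 for Hspb1 on probe 9H02 (0.0185), -0.721 for Gap43 (0.0439), -0.986 for Ptbp2 (0.0303) and -0.992 for Timp1 (0.0168). It was -1.1 for Vgf on probe 1D09 (0.0236), -1.1 for Tspo (0.0385), -1.32 for Naa35 (0.0179), -1.46 for Stmn4 (0.000354) and -2.39 for Npy (3.65e-05).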

How the results depend on the processing

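The 104 calls at 12 h became 7 with equal weights, 181 with a weight for each array and 50 with the 15 first-day arrays. They became 0 with the 12 h arrays alone (653 unadjusted) and 0 by the unmoderated t-test (528 unadjusted). When 1 array was left out they became 5 to 150. Centring, scaling, filters, robust variance, gene means, leaving out plates 36, 52 and 53, and a replicate block gave 79 to 108. The 12 differences from the other times became 2 with equal weights, 2 with scaling and 5 by the unmoderated t-test. Without 1 array they became 2 to 10. The cause was not tested. Against the other first-day times the count stayed at 0, except that it was 0 to 1 without 1 array. No named result reversed its sign. Equal weights, the array subsets by time, filters, leaving out plates, robust variance and the unmoderated t-test leave a 12 h mean unchanged. The replicate block does so too for a probe on all 3 arrays, so its sign could not reverse there. Every called probe had the same sign on all its 12 h arrays. A weight for each array, scaling and leaving out 1 array could therefore not reverse its 12 h value either. Of 46 named probes called at 12 h, 7 stayed called with equal weights, 26 with the first-day arrays alone and 42 with scaling. Deviations of same-numbered arrays at other times correlated at -0.00075, -0.015 and -0.014 with those of 12 h replicates 1 to 3. Such values cannot show whether same-numbered arrays were paired by design. With the replicate block the counts were 97 (43 higher, 54 lower), 15 and 0.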
